A study of Homo sapiens with 12 samples.

Results

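The 10 microRNAs described here have been described as mirtrons, microRNAs cut out of short spliced introns. They are hsa-miR-1224-5p, hsa-miR-1225-3p, hsa-miR-1225-5p, hsa-miR-1226*, hsa-miR-1227, hsa-miR-1228, hsa-miR-1229, hsa-miR-1234, hsa-miR-1237 and hsa-miR-1238, written below without the prefix for human. They were chosen by name, 10 of the 851 human names on the array. They were measured in SUM159 cells, a mesenchymal-like triple-negative breast cancer line, on 1-colour Agilent microRNA arrays, with 3 biological replicates in each of 4 groups. The groups were cells with a Dicer shRNA and metformin (0.5 mM, 24 h), cells with a control shRNA and metformin (0.5 mM, 24 h), cells with the Dicer shRNA and vehicle (PBS, 24 h), and cells with the control shRNA and vehicle (PBS, 24 h). All 12 cultures were stably infected with a PLKO.1 lentivirus and grown with insulin and hydrocortisone, and the control insert was a scrambled, mismatched shRNA (SHC002). Whether each line was a pool or 1 clone is not given in the sources used here. The titles, the knockdown labels and the treatment labels give these groups. The source names do not, since they call the first group treated control cells and the second untreated control cells. If the source names held, the comparison of lines under metformin would be one of treatment within the control line. The metformin comparison in control shRNA cells would then set untreated cells against vehicle cells, across slides. The metformin comparison in Dicer shRNA cells, the averaged knockdown and the interaction would each mix line with treatment. MicroRNA arrays do not read mRNA, and the level of Dicer in these cells was not analysed here.

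A mirtron is a short intron that is spliced out, debranched and folded into a hairpin. Such a hairpin skips Drosha, the nuclease that trims ordinary microRNA transcripts in the nucleus, but is still cut by Dicer to a mature microRNA. The other microRNAs on the array are mostly canonical ones that need Drosha and then Dicer. In human cells miR-1225 and miR-1228 have also been described as simtrons, mirtron-like hairpins made with Drosha but without splicing or Dicer, so the 10 names need not share 1 route.

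RefSeq (GRCh38.p14) held mature sequences for 9 of the 10 names. The array uses older names, and the plain names and the asterisk name were matched to the arm that miRBase later gave them, since the array files hold no sequence. The mature sequences are shown because they carry what the set shares, a high G or C content, and what it does not share, a seed. The seed (bases 2 to 8, which pair with targets) is in capitals.
miR-1224-5p: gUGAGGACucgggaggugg
miR-1225-5p: gUGGGUACggcccagugggggg
miR-1226*: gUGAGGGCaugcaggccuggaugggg
miR-1225-3p: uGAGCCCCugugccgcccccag
miR-1227: cGUGCCACccuuuuccccag
miR-1228: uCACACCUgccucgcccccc
miR-1229: cUCUCACCacugcccucccacag
miR-1237: uCCUUCUGcuccgucccccag
miR-1238: cUUCCUCGucugucugcccc

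The 9 seeds were all different. The mature sequences held 65% to 77.3% G or C, against a median of 52.2% over 2370 RefSeq mature sequences. The 3 that come from the 5p arm were rich in G (53.8% to 59.1%), and the 6 that come from the 3p arm were rich in C (50.0% to 65.0%). The 9 names come from 8 hairpins of 69 to 102 bases. Each of the 8 starts with GU and ends with AG, the letters found at the ends of most introns, as do 36 of 1562 RefSeq hairpins (2.30%). 4 of the hairpins are shown with these letters in capitals, for the names whose signals differed most between the lines under vehicle (MIR1224 and MIR1226) and for the simtrons (MIR1225 and MIR1228).
MIR1224: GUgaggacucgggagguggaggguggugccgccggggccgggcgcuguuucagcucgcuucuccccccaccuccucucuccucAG
MIR1226: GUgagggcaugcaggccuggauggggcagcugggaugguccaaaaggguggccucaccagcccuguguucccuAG
MIR1225: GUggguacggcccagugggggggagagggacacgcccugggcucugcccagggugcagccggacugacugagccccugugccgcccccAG
MIR1228: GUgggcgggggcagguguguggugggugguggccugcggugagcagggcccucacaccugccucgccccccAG

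The 3 5p-arm members start at the first base of their hairpin. Of the 3p-arm members, 4 end at the last base and 2 (miR-1228 and miR-1238) end 2 bases before it. By position, MIR1224 (chr3:184241405-184241489, plus strand) lies within the span of VWA5B2. MIR1225 (chr16:2090195-2090284, minus strand) lies within PKD1, the polycystin-1 gene of polycystic kidney disease. MIR1226 (chr3:47849555-47849629, plus strand) lies within DHX30, an RNA helicase gene. MIR1227 (chr19:2234062-2234149, minus strand) lies within PLEKHJ1. MIR1228 (chr12:57194504-57194576, plus strand) lies within LRP1, an endocytic receptor gene. MIR1229 (chr5:179798278-179798346, minus strand) lies within MGAT4B, which encodes a glycosyltransferase. MIR1237 (chr11:64368602-64368703, plus strand) lies within RPS6KA4, a stress-activated kinase gene. MIR1238 (chr19:10552122-10552204, plus strand) lies within ATG4D, a protease gene of autophagy. Intron boundaries were not analysed here.

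The arrays detected 130 to 204 human names each, and 98 of the 851 (11.5%) were detected on all 12. Slide 2 held the metformin arrays and slide 1 the vehicle arrays, and the effects of metformin and of slide cannot be told apart. Within each slide the positions of the control line came before those of the Dicer line, and line cannot be told apart from position. Of 5 microRNAs listed as marks of the line (miR-21, miR-221, miR-222, miR-100 and miR-125b), all 5 were detected on the 3 control shRNA arrays with vehicle and 4 on all 12. This list was made with earlier results of these data known. Their summed signals were 259 to 371 in Dicer shRNA with metformin and 43.8 to 81.7 in control shRNA with metformin. With vehicle they were 568 to 695 in Dicer shRNA and 1831 to 2059 in control shRNA. None of 5 luminal epithelial microRNAs of the miR-200 family was detected on any array. Of 12 marks of blood, muscle, liver or neurons, 9 were detected on no array, among them miR-451, miR-1 and miR-122. The other 3 (miR-223, miR-133a and miR-133b) were detected on some, with summed signals of 7.74 to 21.1 in Dicer shRNA with metformin, 30.1 to 39.5 in control shRNA with metformin, 0 to 6.52 in Dicer shRNA with vehicle and 0 to 4.41 in control shRNA with vehicle. Their part in the results was not tested.

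Signals are given as the array's total gene signal, scaled between arrays to the 75th percentile of the 98 names detected on all arrays, in arbitrary units. Differences are log2 differences ± SE from limma, fitted over 208 names, and a difference was called where the p adjusted by Benjamini-Hochberg lay under 0.05. Signals under a floor of 3.01 were set to it in the fit. Probes bind with different strength, so a level is compared only between groups of the same microRNA. In bulk RNA, fewer cells with a microRNA and less of it per cell cannot be told apart. The signal error stated in the files was 5.88% to 26.9% for the members detected on all arrays.

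Of the 10 microRNAs, 8 were detected on all 12 arrays, and all 10 passed the filter of the fit, detection on all 3 arrays of at least 1 group. The other 2 were near the floor. miR-1227 was detected on 0 of 3 arrays of Dicer shRNA with metformin, 3 of 3 of control shRNA with metformin, 1 of 3 of Dicer shRNA with vehicle and 1 of 3 of control shRNA with vehicle. It passed the filter only through the group where it was highest. miR-1229 was detected on 3, 3, 2 and 2 arrays of the same groups in that order.

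**Figure D1:**
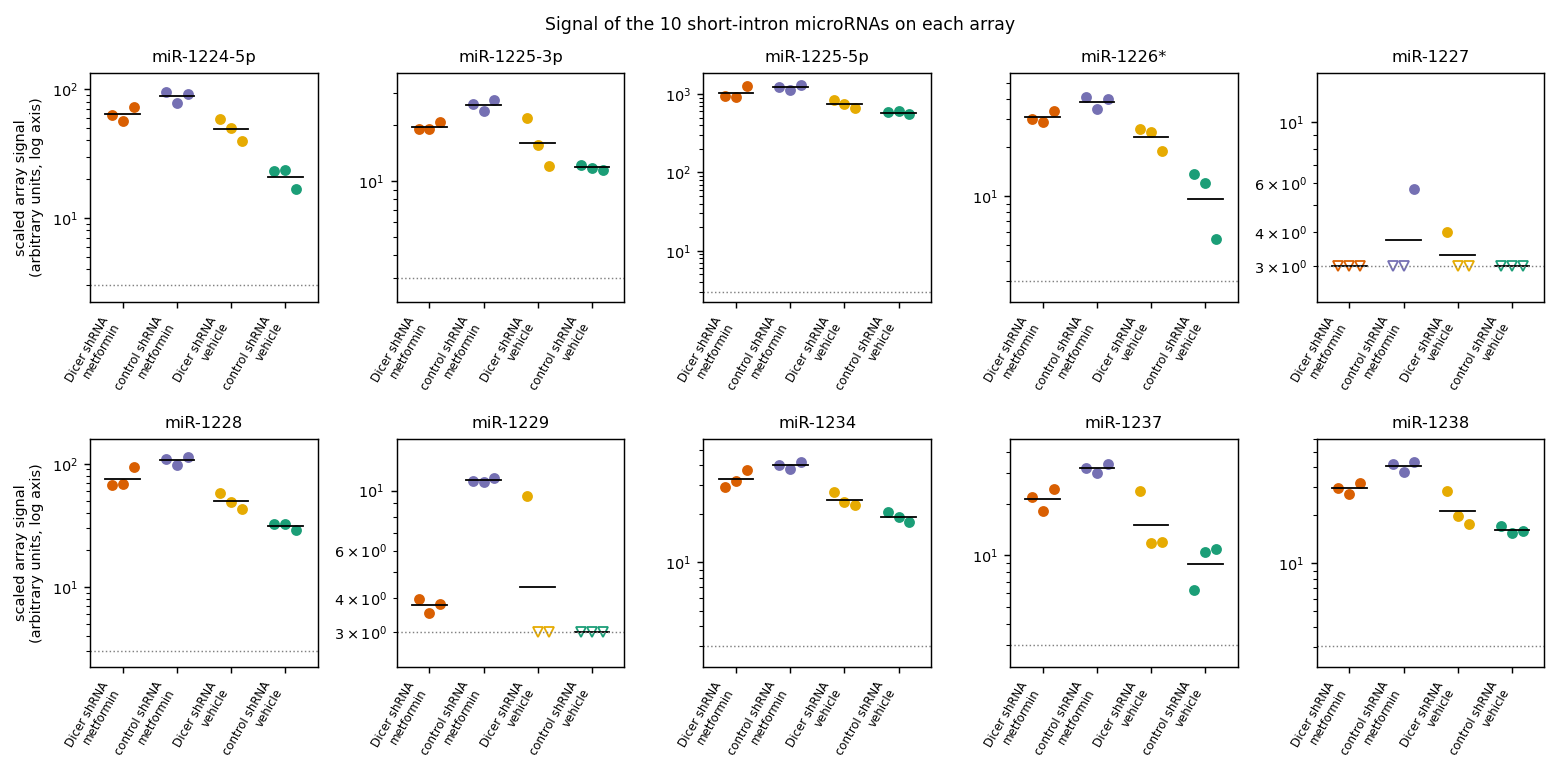
Scaled array signal (arbitrary units, log axis) of each microRNA in the 4 groups, 1 point per array and a black line at the group mean of log2 values. Open triangles mark arrays where the microRNA was not detected or lay under the floor (dotted line, 3.01), drawn at the floor. The control shRNA arrays with metformin are highest on average in all 10 panels, an order that held for 1 of the 10 after scaling to viral probes.

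The brightest of the 10 was miR-1225-5p. Its signal was 950, 930 and 1284 in Dicer shRNA cells with metformin, 1235, 1126 and 1318 in control shRNA cells with metformin, 838, 738 and 655 in Dicer shRNA cells with vehicle, and 587, 604 and 554 in control shRNA cells with vehicle. The vehicle lines did not overlap, and the metformin lines did. The opposite arm of the same hairpin, miR-1225-3p, had 19.1, 19.2 and 20.7 in Dicer shRNA with metformin, 26.1, 23.9 and 27.3 in control shRNA with metformin, 21.8, 15.7 and 12.1 in Dicer shRNA with vehicle, and 12.3, 11.8 and 11.5 in control shRNA with vehicle. Here the metformin lines did not overlap and the vehicle lines did, through the lowest Dicer shRNA array.

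miR-1224-5p and miR-1226*, both 5p arms, showed the widest range. miR-1224-5p had 63.1, 56.4 and 72.6 in Dicer shRNA with metformin, 94.9, 78.0 and 91.3 in control shRNA with metformin, 58.3, 49.9 and 39.5 in Dicer shRNA with vehicle, and 23.1, 23.5 and 16.7 in control shRNA with vehicle. miR-1226* had 29.8, 28.7 and 33.7 in Dicer shRNA with metformin, 40.9, 34.4 and 39.8 in control shRNA with metformin, 25.9, 24.7 and 19.1 in Dicer shRNA with vehicle, and 13.6, 12.1 and 5.46 in control shRNA with vehicle. For both, every control shRNA array with vehicle lay below every other array.

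miR-1228 had 66.9, 68.0 and 94.4 in Dicer shRNA with metformin, 110.2, 97.6 and 115 in control shRNA with metformin, 58.3, 49.2 and 42.7 in Dicer shRNA with vehicle, and 32.6, 32.3 and 28.8 in control shRNA with vehicle. The 4 groups of miR-1228 did not overlap. miR-1234 had 29.4, 31.9 and 37.4 in Dicer shRNA with metformin, 40.1, 38.0 and 41.9 in control shRNA with metformin, 27.4, 23.6 and 22.8 in Dicer shRNA with vehicle, and 20.4, 19.0 and 17.8 in control shRNA with vehicle. Its 4 groups did not overlap either.

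miR-1237 had 21.7, 18.0 and 24.3 in Dicer shRNA with metformin, 32.3, 30.0 and 34.1 in control shRNA with metformin, 23.7, 11.8 and 12.002 in Dicer shRNA with vehicle, and 6.32, 10.4 and 10.8 in control shRNA with vehicle. miR-1238 had 29.9, 27.1 and 31.9 in Dicer shRNA with metformin, 41.7, 37.4 and 43.4 in control shRNA with metformin, 28.3, 19.7 and 17.6 in Dicer shRNA with vehicle, and 17.1, 15.4 and 15.9 in control shRNA with vehicle. In both, replicate 1 of Dicer shRNA with vehicle stood above the other 2 arrays of its group and among the Dicer shRNA arrays with metformin.

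The same array stood apart in the dim members. miR-1229 had 3.99, 3.52 and 3.83 in Dicer shRNA with metformin and 10.9, 10.8 and 11.1 in control shRNA with metformin. In Dicer shRNA with vehicle it had 9.53 on replicate 1, was not detected on replicate 2 and had 2.42 on replicate 3, and in control shRNA with vehicle it had 3.00 and 2.11 on replicates 1 and 2 and was not detected on replicate 3. miR-1227 had 2.89, 2.60 and 5.74 in control shRNA with metformin, 4.01 on 1 array of Dicer shRNA with vehicle and 2.53 on 1 array of control shRNA with vehicle. Its detected signals lay around the floor, and no difference of miR-1227 passed the test on the scaled signals. In the series matrix it passed in 4 comparisons, with 2.02 for metformin in control shRNA cells, -2.21 for the knockdown under metformin, -1.03 for the averaged knockdown and -2.37 for the interaction (limma, adjusted p 0.000176 to 0.0045). When 16 was added to each signal instead of a floor, it passed for the knockdown under metformin (-0.29, adjusted p 0.0399, limma). Each of these comparisons includes control shRNA with metformin. miR-1227 passed the filter only through that group, so these calls give no separate support for a difference.

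The 8 members detected on all arrays varied together. Over the 12 arrays, which share 4 group levels, the scaled log2 signals of their 28 pairs had a Pearson r of 0.785 to 0.995, with a median of 0.941. Each correlated with the mean of the other 7 at 0.906 (miR-1226*) to 0.990 (miR-1228). The coefficient of variation between the 3 replicates of a group ran from 3.25% (miR-1225-3p, control shRNA with vehicle) to 43.2% (miR-1237, Dicer shRNA with vehicle).

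In Dicer shRNA cells with vehicle, 6 of the 10 microRNAs rose against control shRNA cells with vehicle and none fell, after scaling to the 75th percentile, whereas 1 rose and 2 fell after scaling to viral probes. The largest differences were those of miR-1226* (1.25 ± 0.29, adjusted p 0.00365) and miR-1224-5p (1.22 ± 0.18, adjusted p 0.000215, limma), 2.38-fold and 2.33-fold. miR-1237 rose by 0.75 ± 0.29, miR-1228 by 0.67 ± 0.16, miR-1238 by 0.41 ± 0.16 and miR-1234 by 0.36 ± 0.12. miR-1225-3p (0.44 ± 0.18, adjusted p 0.0534), miR-1225-5p (0.35 ± 0.14, adjusted p 0.0556), miR-1229 (0.55 ± 0.36) and miR-1227 (0.14 ± 0.23) did not pass (limma). Of all 208 names 59.6% were called, 21.6% higher and 38.0% lower. The groups were fully separated, Dicer shRNA higher, for 7 of the 10, and for 23.6% of all names. The median difference was 0.50 over the 10, 0.00 over the 208 and 0.33 over the 98 names detected on all arrays.

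The calls of miR-1224-5p, miR-1226* and miR-1228 held whichever of the 12 arrays was left out. That of miR-1226* was lost with viral scaling (0.52, adjusted p 0.0976) and with only the groups compared (adjusted p 0.0536), and that of miR-1228 with viral and with median scaling (limma). With viral scaling miR-1234 was called in the other direction (-0.36, adjusted p 0.00724, limma). Its call was lost with no scaling (adjusted p 0.0776), with median scaling (adjusted p 0.783) and in the series matrix (adjusted p 0.179, limma). It was also lost without replicate 1 of Dicer shRNA with vehicle (adjusted p 0.0656, limma). The calls of miR-1237 and miR-1238 were lost in 9 and 11 of the 12 fits that each omit 1 array. Both were also lost with no, median and viral scaling, the offset of 16, the series matrix and only the groups compared. When the first replicate of the Dicer line under vehicle was omitted, 3 of the 10 were called, with a median of 0.27.

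**Figure D2:**
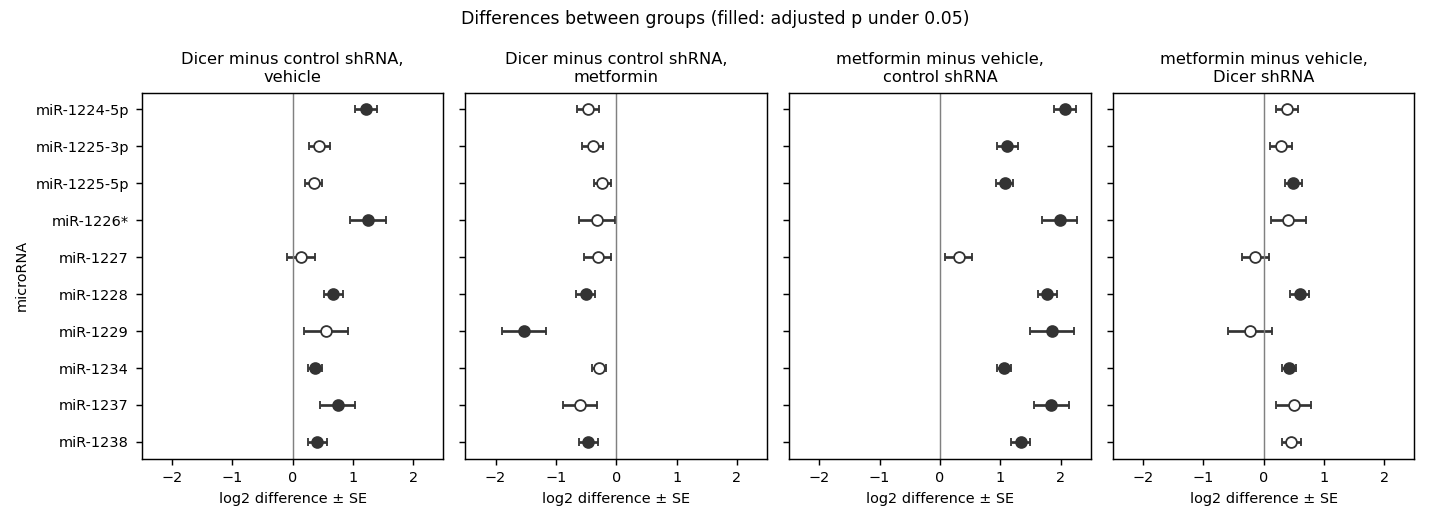
Log2 differences ± SE (limma, 3 arrays per group) of each microRNA in 4 comparisons, filled where the adjusted p was under 0.05. All 10 lie above 0 for the knockdown under vehicle and below 0 under metformin, and these directions turned for several members after scaling to viral probes.

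With metformin, 3 of the 10 fell in the Dicer line, a share near that of all names, and 7 did not pass. miR-1229 fell by 1.53 ± 0.36 in Dicer shRNA cells against control shRNA cells (adjusted p 0.00656, limma), or 2.89-fold, and the 2 groups were far apart. miR-1228 fell by 0.51 ± 0.16 and miR-1238 by 0.46 ± 0.16. All 10 fitted values lay below 0, from -1.53 to -0.23, whereas 8 of the 10 lay above 0 after scaling to viral probes, where miR-1225-5p and miR-1234 rose and none fell. Of all names 38.9% were called, 25.0% lower and 13.9% higher. The groups were fully separated, Dicer shRNA lower, for 8 of the 10 and for 39.9% of all names. The median difference was -0.43 over the 10, -0.24 over the 208 and -0.33 over the 98. After scaling to viral probes 53 of the 208 names were called, and the medians were 0.16 over the 10 and 0.01 over the 208.

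The call of miR-1229 held whichever array was left out, but it was lost with quantile normalization (-0.78, adjusted p 0.132), in the series matrix (-1.26, adjusted p 0.164) and with viral scaling (-0.82, adjusted p 0.209, limma). That of miR-1228 was lost without replicates 1 or 3 of control shRNA with metformin or replicates 1 or 2 of Dicer shRNA with metformin, and that of miR-1238 in 9 of 12 such fits. The count of called members was 1 in 4 of these fits, 5 when replicate 3 of the Dicer line under metformin was omitted and 7 when replicate 1 of the Dicer line under vehicle was omitted, an array that enters this comparison only through the shared spread.

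Averaged over both slides, miR-1224-5p alone rose, by 0.38 ± 0.13 (adjusted p 0.0325, limma), and it lost its call in 7 of the 12 fits with 1 array left out. miR-1226* had 0.47 ± 0.21 and miR-1229 -0.49 ± 0.26, and the other 7 lay between -0.09 and 0.08. Of all names 51.0% were called, 15.4% higher and 35.6% lower. With scaling to the median none of the 10 rose and 6 fell.

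In control shRNA cells, metformin arrays had higher signals than vehicle arrays for 9 of the 10 microRNAs and lower signals for none, after scaling to the 75th percentile, whereas 4 fell and none rose after scaling to viral probes. miR-1224-5p rose by 2.07 ± 0.18 (4.21-fold, adjusted p 1.68e-06, limma) and miR-1226* by 1.99 ± 0.29 (3.96-fold). miR-1229 rose by 1.86 ± 0.36, miR-1237 by 1.85 ± 0.29 and miR-1228 by 1.78 ± 0.16. The difference of miR-1229 is limited by the floor, at or under which all 3 vehicle arrays lay. miR-1238 rose by 1.34 ± 0.16, miR-1225-3p by 1.12 ± 0.18, and miR-1225-5p and miR-1234 by 1.07 each, though miR-1225-5p fell by 0.26 ± 0.06 after quantile normalization. miR-1227 (0.31 ± 0.23) did not pass. Of all names 88.0% were called, 47.6% higher and 40.4% lower. The groups were fully separated, metformin higher, for 9 of the 10 and for 51.4% of all names. The median difference was 1.56 over the 10, 0.52 over the 208 and 0.93 over the 98. The 9 calls held whichever array was left out. After scaling to viral probes 161 of the 208 names were called, and the medians were -0.17 over the 10 and -1.16 over the 208.

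In Dicer shRNA cells the metformin arrays differed less from the vehicle arrays. miR-1228 rose by 0.60 ± 0.16 (adjusted p 0.0212, limma), miR-1225-5p by 0.50 ± 0.14 and miR-1234 by 0.42 ± 0.12, whereas none of the 10 rose or fell after scaling to viral probes. The other 7 did not pass, from -0.23 ± 0.36 (miR-1229) to 0.50 ± 0.29 (miR-1237). Of all names 24.5% were called, 6.25% higher and 18.3% lower. The groups were fully separated, metformin higher, for 4 of the 10 and for 16.3% of all names. The median difference was 0.41 over the 10, 0.00 over the 208 and 0.17 over the 98. This count rested on few arrays. It was 0 when replicate 3 of Dicer shRNA with metformin was omitted, 0 when replicate 2 or 3 of Dicer shRNA with vehicle was omitted, and 7 when replicate 1 of the last group was omitted. Without that array the fitted difference of miR-1229 was 0.33 ± 0.08. It is limited by the floor, to which replicates 2 and 3 of Dicer shRNA with vehicle were both set, and its error is understated.

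By the interaction test the metformin difference was smaller in the Dicer line than in the control line for 9 of the 10, after scaling to the 75th percentile. After scaling to viral probes the interaction was called below 0 for none of the 10, and instead above 0 for 2 (miR-1225-5p and miR-1234). Their metformin differences were then -0.75 and -0.76 in control shRNA cells and 0.013 and -0.065 in Dicer shRNA cells. That scaling called 125 of the 208 names, with median interactions of 0.14 over the 10 and 0.79 over the 208. With the 75th-percentile scaling the interaction was -2.09 ± 0.51 for miR-1229, -1.68 ± 0.26 for miR-1224-5p, -1.57 ± 0.42 for miR-1226*, -1.35 ± 0.41 for miR-1237 and -1.18 ± 0.22 for miR-1228. It was -0.87 ± 0.23 for miR-1238, -0.83 ± 0.25 for miR-1225-3p, -0.65 ± 0.16 for miR-1234 and -0.58 ± 0.20 for miR-1225-5p (adjusted p 0.000225 to 0.0233, limma). Of all names 76.4% were called, 39.4% lower and 37.0% higher. The median interaction was -1.03 over the 10, -0.53 over the 208 and -0.68 over the 98. miR-1227 (-0.45 ± 0.32) did not pass. miR-1229 did not pass with quantile normalization (-1.27, adjusted p 0.0528) or in the series matrix (-2.01, adjusted p 0.063, limma). Its interaction is limited by the floor, at or under which all its control shRNA arrays with vehicle lay. It ran from -2.36 to -1.53 with 1 array left out. With 1 array left out 8 or 9 of the 10 were called, and the call lost was that of miR-1225-5p, when replicate 1 or 2 of Dicer shRNA with metformin or replicate 3 of control shRNA with metformin was omitted (limma, adjusted p 0.0525 to 0.0579).

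By arm, the median difference for the knockdown under vehicle was 1.22 over the 3 5p members (0.35 to 1.25) and 0.50 over the 6 3p members (0.14 to 0.75). For metformin in control shRNA cells it was 1.99 over the 5p members (1.07 to 2.07) and 1.56 over the 3p members (0.31 to 1.86). The ranges overlapped in both comparisons, and the difference between arms was not tested.

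The other arms and other short-intron names on the array were dim. miR-1226, the 3p arm that has been described as targeting the mRNA of the mucin MUC1, and miR-1228* were detected on no array. miR-1224-3p had 3.77, 3.67 and 2.93 in Dicer shRNA with metformin, 9.65, 6.04 and 8.51 in control shRNA with metformin, 5.59, 2.20 and 3.30 in Dicer shRNA with vehicle, and 3.08, 4.31 and 2.74 in control shRNA with vehicle. It rose by 1.21 ± 0.26 with metformin in control shRNA cells and fell by 1.19 ± 0.26 in Dicer shRNA cells against control shRNA cells with metformin. For metformin in control shRNA cells 3 of the 4 tested names of this list rose (miR-1224-3p, miR-1236 and miR-877*), and for the knockdown under vehicle none of the 4 passed. Of all 208 names 47.6% were called higher in the first comparison, and 59.6% were called in the second. The control shRNA signals of miR-1224-3p and miR-1236 with vehicle lay around the floor.

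The names listed as capped-hairpin microRNAs, a class shown in mouse to bypass Drosha and need Dicer, did not move as 1 group. Whether each listed name takes this route was not analysed here. For metformin in control shRNA cells miR-320c rose by 3.24 ± 0.17 and miR-320a by 0.68 ± 0.14, miR-320d fell by 2.23 ± 0.13, and miR-320b (-0.21 ± 0.13) and miR-484 (0.74 ± 0.50) did not pass. For the knockdown under vehicle miR-320a rose by 0.52 ± 0.14 and miR-320d fell by 0.80 ± 0.13. miR-451, which is cut by Argonaute 2 and needs no Dicer, was detected on no array, so no Dicer-independent comparison could be made with it.

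Of the canonical microRNAs listed for comparison, which need both nucleases, miR-21 and miR-222 ran against the members. miR-21, an abundant microRNA of many tumours, had 72.3, 101 and 61.6 in Dicer shRNA with metformin, 14.1, 27.2 and 14.4 in control shRNA with metformin, 140, 177 and 195 in Dicer shRNA with vehicle, and 954, 869 and 1059 in control shRNA with vehicle. It was lowest where the 8 members were highest and highest where they were lowest. let-7a, a repressor of growth genes such as RAS, was detected on 0 arrays of Dicer shRNA with metformin, 0 of control shRNA with metformin, 2 of Dicer shRNA with vehicle and 3 of control shRNA with vehicle.

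By the rule for likeness, the 5 human names closest to the mean centred profile of the 8 members, out of 90 other names detected on all arrays, were miR-296-5p (r = 0.989), miR-1207-5p (0.988), miR-1268 (0.987), miR-1249 (0.986) and miR-575 (0.984). Over 12 arrays 33 of the 90 had an r above 0.9. The 5 least like were miR-21 (-0.977), miR-24 (-0.970), miR-23a (-0.967), miR-92a (-0.964) and miR-1287 (-0.954). These are descriptions over arrays that share 4 group levels and 1 scaling.

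Probes for viral microRNAs followed the same course. The 10 viral names detected on all arrays had a mean profile that correlated with that of the 8 members at 0.985 over the 12 arrays, and singly at 0.665 to 0.983. Their median difference was 0.87 for the knockdown under vehicle (10 of 10 above 0), -0.49 under metformin (9 of 10 below 0), 1.38 for metformin in control shRNA cells (10 of 10 above 0) and 0.34 for metformin in Dicer shRNA cells (8 of 10 above 0). Their summed scaled signal was 1585 to 2219 in Dicer shRNA with metformin, 2459 to 3037 in control shRNA with metformin, 1276 to 1587 in Dicer shRNA with vehicle and 597 to 768 in control shRNA with vehicle. The 4 control features named hur that were detected on all arrays ran the other way, with a median of -0.81 for the knockdown under vehicle and -3.84 for metformin in control shRNA cells. The part of a signal shared with the viral probes, or of the loss of the hur features, in the results was not tested.

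**Figure D3:**
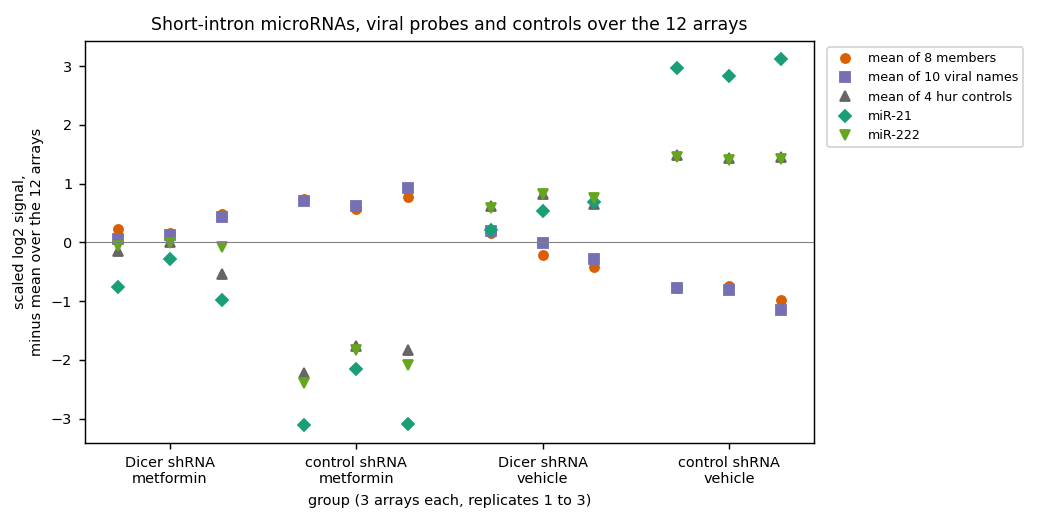
Scaled log2 signal of each array minus the mean over all 12 arrays, for the mean of the 8 members detected on all arrays, the mean of 10 viral names, the mean of 4 hur control features, miR-21 and miR-222. The members and the viral names averaged 0.70 and 0.74 in control shRNA with metformin, against -0.84 and -0.91 in control shRNA with vehicle, while miR-21, miR-222 and the hur features had the opposite sign there.

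Scaling to the viral names moved the median of all 208 names to -0.60 for the knockdown under vehicle, against 0.00 after scaling to the 75th percentile. For metformin in control shRNA cells it moved it to -1.16, against 0.52. Measured against the median of all names, the members' median was higher by 0.52 after viral scaling and by 0.50 after scaling to the 75th percentile for the knockdown under vehicle. One factor per array shifts all names alike apart from the floor, so this distance is no separate check. It was 0.85 with quantile normalization, 0.47 in the series matrix, 0.27 with the offset of 16 and 0.22 among the names detected on all arrays. For metformin in control shRNA cells it was 1.00 after viral scaling and 1.04 after scaling to the 75th percentile, and 1.64, 1.30, 0.60 and 0.63 under the same 4 alternatives in that order. For the knockdown under metformin it was 0.15 after viral scaling and -0.19 after scaling to the 75th percentile, and so changed sign.

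**Figure D4:**
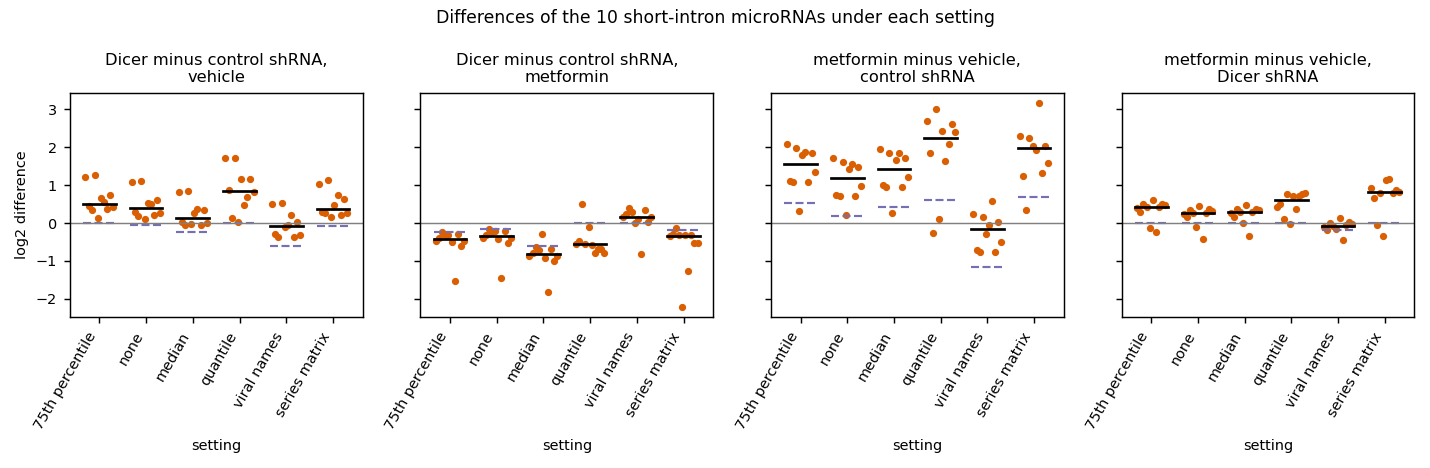
Log2 differences of the 10 microRNAs (points), their median (black line) and the median of all names tested (dashed line) in 4 comparisons, for 5 scalings of the array signals and for the series matrix. For metformin in control shRNA cells the members' median is 1.56 after scaling to the 75th percentile and -0.17 after scaling to viral names.

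Base composition moved with the differences in part. Hairpin sequences in RefSeq were matched for 170 of the 208 names tested (81.7%). Across the 161 that are not members, which are not independent replicates, the GC content of the hairpin correlated with the difference for the knockdown under vehicle at r = 0.325 and with that for metformin in control shRNA cells at r = 0.278. The 27 other names whose hairpins were at least as rich in GC as the members' poorest (64.0%) had medians of 0.18 and 1.10 in these comparisons, against -0.44 and -0.67 in the 134 names below it. The part of base composition in the results was not tested.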

How the data were processed

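Cy3-labelled total RNA was hybridised to 1-colour microRNA arrays, per the labels. Each deposited file gives a summed intensity per microRNA on a linear scale, its stated error and a detection flag, per the file headers, and an undetected name has an intensity of 0.1. The submitters' processing notes name Agilent Feature Extraction 9.1. Background settings were not given in the sources used here. The authors' deposited series matrix has log2 values of 221 names, with no stated normalization, and served as an alternative. Groups follow the titles and the knockdown and treatment labels. The source names call the metformin arrays treated control (Dicer shRNA by title) and untreated control (control shRNA by title), and the disagreement was not resolved.

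For scaling, the 75th percentile was taken on each array over the 98 human names detected throughout (factors 0.869 to 1.20). The floor of 3.01 (log2 1.59) is the 5th percentile of detected human signals, as the median of the 12 arrays. limma 3.58.1 (R 4.3.3) fitted 4 group means to the 208 names detected on every array of at least 1 group, with 8 residual and 1.85 prior degrees of freedom. Errors are understated where a whole group lies at the floor. The fit was tested on simulated data. Alternatives changed the scaling, the floor, the filter, the source of values, the block and the arrays included. By rule, the text names all 10 members, the listed Drosha-bypassing and marker names, and the 5 names most and least like the members. Members and lists were chosen with earlier results of these data known. No replicate pair held identical values (r 0.956 to 0.992), and p-values measure the spread between 3 cultures a group. Tables and figures used Python 3.11.15, pandas 2.3.3, numpy 2.4.6 and matplotlib 3.10.9.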

Additional observations from a re-analysis of the deposited data

Results flagged for a closer look

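The metformin difference in Dicer shRNA cells was set against that in control shRNA cells by the interaction term of the limma fit, and 9 of the 10 microRNAs passed it (limma, adjusted p 0.000225 to 0.0233). Of all 208 names 76.4% passed it, 39.4% lower. The interaction was -2.09 for miR-1229, -1.68 for miR-1224-5p, -1.57 for miR-1226*, -1.35 for miR-1237, -1.18 for miR-1228, -0.87 for miR-1238, -0.83 for miR-1225-3p, -0.65 for miR-1234 and -0.58 for miR-1225-5p. That of miR-1229 is limited by the floor. Over the 10 viral names the median interaction was -1.32, with 10 of 10 below 0. After scaling to those viral names none of the 9 was called below 0. Of the 9, 2 (miR-1225-5p and miR-1234) were called in the other direction. That scaling called 125 of the 208 names.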

How the results depend on the processing

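With 3 arrays a group, few arrays limit the precision, and miR-1227 and miR-1229 are limited by signal near the floor. Counts of called members are given against those of the 75th-percentile scaling (6 for the knockdown under vehicle, 3 for the knockdown under metformin, 1 averaged, 9 for metformin in control shRNA cells, 3 for metformin in Dicer shRNA cells, 9 for the interaction), and the cause of the changes was not tested. With no scaling the knockdown under vehicle called 3, metformin in Dicer shRNA cells 1 and the interaction 8. The 75th percentile over all human names equals the value of undetected names on every array, so that alternative is the same as no scaling and gave no separate value.

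With median scaling the knockdown under vehicle called 2, the knockdown under metformin 9, the averaged knockdown 6 (all lower) and metformin in Dicer shRNA cells 1. The knockdown under vehicle became -0.047 for miR-1234 and -0.0007 for miR-1238. The averaged knockdown became -0.028 for miR-1224-5p, -0.38 for miR-1225-3p, -0.35 for miR-1225-5p, -0.33 for miR-1228 and -0.37 for miR-1234.

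With viral scaling the knockdown under vehicle called 3, the knockdown under metformin 2 (higher), metformin in control shRNA cells 4 (lower), metformin in Dicer shRNA cells 0 and the interaction 2 (higher), and 1 of the 10 was highest in control shRNA with metformin, against 10. The knockdown under vehicle became -0.38 for miR-1225-5p, -0.057 for miR-1228, -0.36 for miR-1234, -0.32 for miR-1238, -0.29 for miR-1225-3p and -0.12 for miR-1227, so 6 of 10 changed sign. The knockdown under metformin changed sign for 8 of 10, with 0.16 for miR-1224-5p, 0.23 for miR-1225-3p, 0.30 for miR-1226*, 0.019 for miR-1237, 0.39 for miR-1225-5p, 0.11 for miR-1228, 0.33 for miR-1234 and 0.16 for miR-1238. Metformin in control shRNA cells became -0.71 for miR-1225-3p, -0.75 for miR-1225-5p, -0.048 for miR-1228, -0.76 for miR-1234, -0.49 for miR-1238 and -0.28 for miR-1227. Metformin in Dicer shRNA cells became -0.065 for miR-1234, -0.093 for miR-1224-5p, -0.19 for miR-1225-3p, -0.069 for miR-1226* and -0.019 for miR-1238. The interaction became 0.52 for miR-1225-3p, 0.77 for miR-1225-5p, 0.17 for miR-1228, 0.69 for miR-1234, 0.0017 for miR-1237, 0.47 for miR-1238 and 0.12 for miR-1227, and the averaged knockdown changed sign for 2 of 10.

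With quantile normalization the knockdown under metformin called 7, the averaged knockdown 2, metformin in Dicer shRNA cells 5 and the interaction 8 (7 lower, 1 higher), and miR-1225-5p became 0.51 for the knockdown under metformin, -0.26 for metformin in control shRNA cells and 0.37 for the interaction. With an offset of 16 the knockdown under metformin called 5 (with miR-1227) and the averaged knockdown 0. In the series matrix the knockdown under vehicle called 3, the averaged knockdown 2, metformin in control shRNA cells 10, the interaction 7 (without miR-1225-3p, miR-1225-5p and miR-1229, and with miR-1227) and metformin in Dicer shRNA cells 5, where miR-1225-5p became -0.061. The series-matrix counts of 2, 10 and 7 include miR-1227, which passed the filter only through control shRNA with metformin. With only the groups compared metformin in Dicer shRNA cells called 0. The knockdown under vehicle then lost miR-1226*, miR-1237 and miR-1238 and gained miR-1225-5p. The knockdown under metformin lost miR-1228 and gained miR-1225-3p and miR-1237.

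With 1 array left out the counts ran from 3 to 8 for the knockdown under vehicle, 1 to 7 under metformin, 0 to 2 averaged, 9 to 9 for metformin in control shRNA cells, 0 to 7 in Dicer shRNA cells and 8 to 9 for the interaction. For metformin in Dicer shRNA cells miR-1229 ran from -0.50 to 0.33, the highest without replicate 1 of Dicer shRNA with vehicle, and without that array the averaged knockdown called 1, lower. Replicates 2 and 3 of that group were set to the floor for miR-1229. Same-numbered replicates did not deviate together in every pair (correlations -0.24 to 0.69). With 3 arrays a group, these values cannot settle whether the numbers pair the samples. With the replicate number as a block the knockdown under vehicle called 5, losing miR-1237, and metformin in Dicer shRNA cells 2, losing miR-1225-5p, and the other counts were 3, 1, 9 and 9. Counts over all names are not given here for this fit, the fits with 1 array left out or only the groups compared. Of 568 values for single members under the alternatives that keep all arrays, 431 kept both their sign and their side of the threshold, and 58 changed sign, 27 of these with no call in either fit.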
